A study of Mus musculus with 8 samples.

Results

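The miR-99/100 and miR-125 families were followed in 8 small RNA libraries from a mouse embryonic stem cell model. The members were the 10 rows of the deposited miRNA table, of 1099 miRNAs listed, whose names are mmu-miR-99a, mmu-miR-99b, mmu-miR-100, mmu-miR-125a or mmu-miR-125b (the mmu- prefix for mouse is left out below), with any copy number and arm. Of these, 4 come from the chromosome 17 locus, which encodes miR-99b and miR-125a, and 6 from the paralog loci on chromosomes 9 and 16. The cells were KH2 embryonic stem cells of genotype KH2-DGCR8, in which doxycycline (Dox) induces DGCR8, the RNA-binding partner of the nuclease DROSHA. They were taken with Dox and without Dox at days 0, 1, 2 and 4 of embryoid body (EB) differentiation, the growth of stem cells as floating aggregates in which they leave pluripotency. All 8 conditions carry the same transgenic line, each condition has 1 library, and neither separate cultures for the libraries, nor the length of the Dox treatment, nor the use of feeder cells is stated, and small RNA libraries do not measure DGCR8 itself. The study set out to learn how extra DGCR8 affects the making of miRNAs.

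DROSHA and DGCR8 form the Microprocessor, which cuts a hairpin out of a primary transcript, and DICER then trims the hairpin into a duplex of a 5p and a 3p arm. The miR-99/100 family is among the oldest of animal miRNAs, and its known targets include the growth kinase gene Mtor. The miR-125 family is the vertebrate relative of lin-4, the developmental timing miRNA of Caenorhabditis elegans, and it represses Lin28a, whose protein blocks the maturation of let-7. In mammals both families are encoded in clusters that also hold a let-7 copy, so that 1 transcript can carry a miR-99 or miR-100, a let-7 and a miR-125.

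The 3 loci lie on different chromosomes (GRCm38, the assembly of the mm10 build named in the submitters' processing notes). On chromosome 17, Mir99b, Mirlet7e and Mir125a span 692 bases, from 17830188 to 17830879 on the plus strand. Mir99b and Mirlet7e are intronic in Spaca6 and Mir125a overlaps an annotated exon of it. On chromosome 16, Mir99a, Mirlet7c-1 and Mir125b-2 span 47408 bases, from 77598936 to 77646343, in introns of the non-coding Mir99ahg. On chromosome 9, Mir100, Mirlet7a-2 and Mir125b-1 span 50578 bases, from 41531425 to 41582002, in introns of the non-coding 3110039I08Rik and Gm49317, and Mir125b-1 also overlaps an exon of Gm28119, a transcript annotated as lying inside an intron on the same strand.

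The mature 5p sequences decide which members can be told apart, so they are shown first, from RefSeq (GRCm38.p6), with the seed, bases 2 to 8 from the 5′ end, in capitals. All 10 members matched an entry.
miR-99b-5p: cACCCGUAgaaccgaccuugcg
miR-99a-5p: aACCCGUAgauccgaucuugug
miR-100-5p: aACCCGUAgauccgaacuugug
miR-125a-5p: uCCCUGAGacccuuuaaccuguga
miR-125b-5p: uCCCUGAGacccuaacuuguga
miR-351-5p: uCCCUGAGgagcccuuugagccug
The miR-99/100 members share 1 seed and the miR-125 members another. Counted from 1 at the 5′ end, miR-99a-5p differs from miR-100-5p at 1 base, U16A, and miR-99b-5p differs from miR-99a-5p at 4 bases, C1A, A11U, C16U and C21U. The values of miR-99a-5p and miR-100-5p were equal in 4 of 8 libraries and never more than 4 RPM apart, so they are treated here as 1 signal that cannot be assigned to either locus. miR-125a-5p and miR-125b-5p share their first 13 bases. The miR-125b-5p sequence is the same from chromosomes 9 and 16, so its row sums both copies. miR-351-5p, from chromosome X, was the only other listed miRNA that shares a member's 5p seed, that of miR-125.

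The miR-125b copies share their 5p sequence and differ in their 3p arms, shown with the seed in capitals.
miR-125b-1-3p: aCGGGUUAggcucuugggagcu
miR-125b-2-3p: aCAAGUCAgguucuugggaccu
The hairpins of Mir125a (chromosome 17) and Mir125b-1 (chromosome 9) show where the arms lie, here with both mature arms in capitals.
Mir125a: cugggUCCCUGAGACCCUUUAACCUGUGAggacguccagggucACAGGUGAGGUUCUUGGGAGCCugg
Mir125b-1: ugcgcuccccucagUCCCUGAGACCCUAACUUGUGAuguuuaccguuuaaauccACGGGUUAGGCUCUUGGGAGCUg
Of the arms particular to the other loci, miR-100-3p and miR-125b-2-3p were listed at 0 in all 8 libraries, where 3 reads would give 5.54 to 8.28 RPM. Only miR-125b-1-3p was detected, at 5, 10, 4 and 17 RPM with Dox at days 0, 1, 2 and 4, against 2, 2, 12 and 8 RPM without Dox. That is 1 to 9 implied reads per library, too few to order the days. miR-99a-3p was not among the miRNAs listed.

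Levels are the deposited values, read as RPM, a depth-scaled share of each library's miRNA reads rounded to whole numbers. The libraries held 362483 to 541342 implied reads (the read totals for which all values are whole reads), and counting intervals below are 95% intervals on those reads and cover counting error only. The stem cell label held: the 6 naive stem cell markers of the miR-290 cluster summed to 321010 RPM with Dox and 353821 RPM without Dox at day 0, and to 175473 RPM with Dox and 123096 RPM without Dox at day 4. Levels are shares of a library, so a lower share of these miRNAs leaves a larger share to others by construction, and fewer cells of a type cannot be told apart from less RNA per cell.

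The chromosome 17 locus supplied most of both families. miR-99b-5p, the most abundant member and 53rd of all miRNAs by mean, was at 1662, 2715, 3265 and 4768 RPM with Dox at days 0, 1, 2 and 4, against 1803, 2419, 2738 and 4538 RPM without Dox. Levels were higher at each later day in both treatments, and the Dox and no-Dox ranges overlapped almost entirely. miR-125a-5p was at 563, 838, 340 and 985 RPM with Dox, against 342, 734, 458 and 985 RPM without Dox. In both treatments the level was higher at day 1 than at day 2 and highest at day 4. Of the minor arms, miR-99b-3p was at 107, 276, 338 and 251 RPM with Dox, against 141, 245, 410 and 406 RPM without Dox. It was lowest at day 0 in both treatments. With Dox it was highest at day 2, unlike its 5p arm, which was highest at day 4. Without Dox days 2 and 4 were nearly equal for miR-99b-3p (day 4 over day 2 of 0.988, counting interval 0.788 to 1.24).

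The paralogs from the other loci were far lower, with their lowest levels at days 1 and 2. miR-125b-5p was at 150, 81, 51 and 96 RPM with Dox, against 155, 58, 28 and 77 RPM without Dox, so that it was highest at day 0 and lowest at day 2 in both treatments. miR-100-5p was at 46, 39, 15 and 105 RPM with Dox, against 34, 13, 12 and 63 RPM without Dox, and miR-99a-5p was at 44, 39, 15 and 109 RPM with Dox, against 32, 11, 12 and 63 RPM without Dox. This shared signal was lowest at day 2 with Dox, at 12 RPM or near it on days 1 and 2 without Dox, and highest at day 4 in both treatments.

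**Figure D1:**
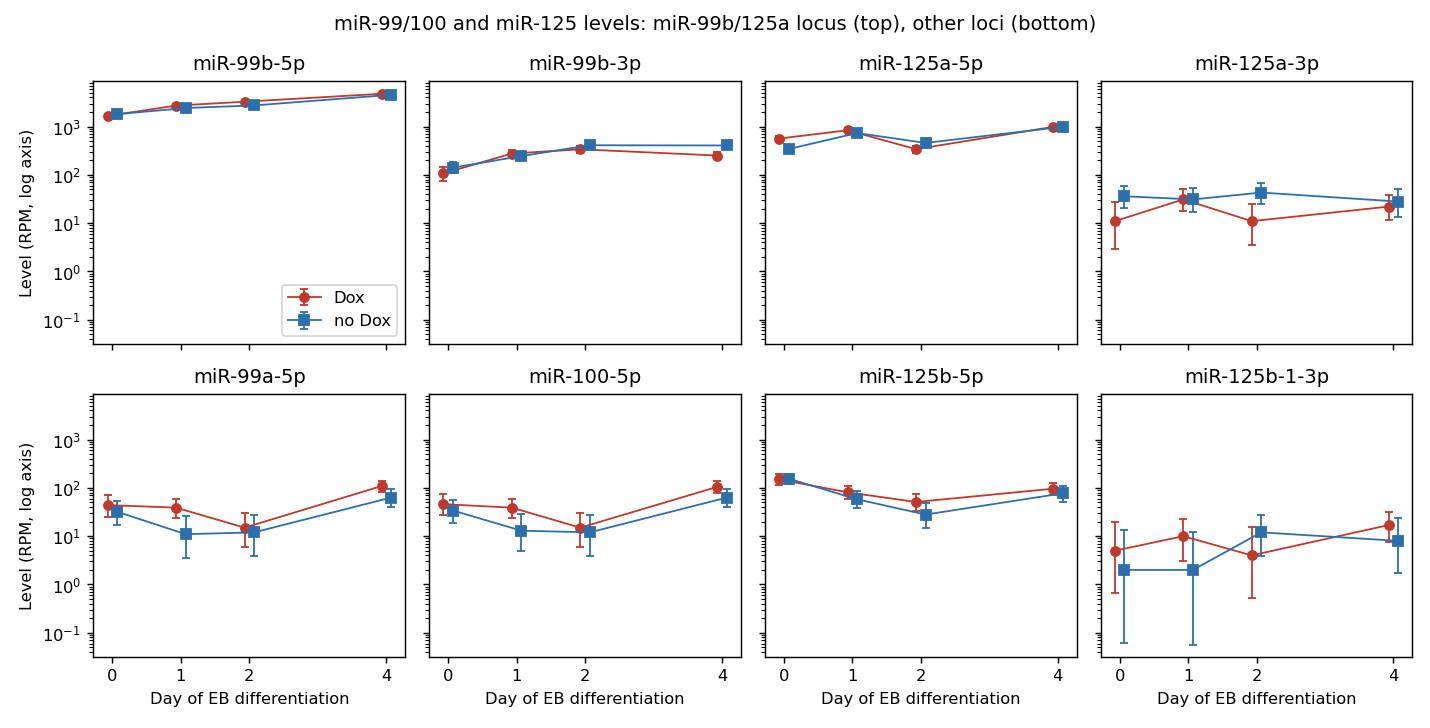
Level of 8 members (RPM, log axis) by day of EB differentiation, with Dox (circles) and without Dox (squares). Each point is 1 library, and bars are 95% counting intervals. miR-99b-5p lies between 1662 and 4768 RPM and is higher at each later day in both treatments, while miR-125b-5p is lowest at day 2, at 51 RPM with Dox and 28 RPM without Dox.

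As shares, miR-99b-5p made up 94.9% to 99.1% of the miR-99/100 5p reads in every library, with the miR-99a-5p and miR-100-5p rows both counted as listed. miR-125a-5p made up 78.9%, 91.2%, 87.0% and 91.1% of the miR-125 5p reads with Dox at days 0, 1, 2 and 4, against 68.8%, 92.7%, 94.2% and 92.7% without Dox. The share was thus lowest at day 0 in both treatments, where the Wilson intervals (73.6% to 83.4% with Dox, 62.1% to 74.7% without Dox) lay below those of each later day except day 2 with Dox (81.3% to 91.1%). As a share of all reads, the 4 products of the chromosome 17 locus made up 0.234% with Dox and 0.232% without Dox at day 0, and 0.603% with Dox and 0.596% without Dox at day 4. The 6 members of the other loci together stayed at or below 0.0327%, the value of day 4 with Dox. They were at 0.0064% in the lowest library, day 2 without Dox. These sums also count the shared miR-99a-5p and miR-100-5p signal under both names.

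Change over days was tested next with limma, with treatment and day in 1 model and p-values adjusted over all 839 miRNAs that passed the filter on low values. Of the 10 members 8 were tested, all except miR-100-3p and miR-125b-2-3p. Each day's contrast uses the same day 0 libraries, so the contrasts are given side by side and are not independent. At day 4, miR-99b-5p rose by 1.43 in log2 units (SE 0.27, limma adjusted p = 1.74e-06), and it was 2.87-fold higher with Dox and 2.52-fold higher without Dox than at day 0. Its other arm, miR-99b-3p, rose by 1.37 (SE 0.36, limma adjusted p = 0.00129), and miR-125a-5p rose by 1.17 (SE 0.31, limma adjusted p = 0.00151). These 3 of 8 tested members, all from the chromosome 17 locus, passed at day 4, where 25.7% of all miRNAs tested passed, 21.9% as higher and 3.81% as lower.

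The median of all miRNAs tested was itself shifted at day 4, by 0.56, and calls over all miRNAs were 184 higher and 32 lower, against 100 higher and 61 lower with median-of-ratios scaling. With median-of-ratios scaling, which takes that shift out, the log2 change of miR-99b-5p was 0.83 (limma adjusted p = 0.0165), and with the miR-290 cluster left out of the scaling total it was 0.92 (limma adjusted p = 0.00401). The calls of miR-99b-3p (0.77 and 0.87, limma adjusted p = 0.119 and 0.0752) and miR-125a-5p (0.57 and 0.66, limma adjusted p = 0.21 and 0.123) were lost under those scalings. miR-125b-5p, with a log2 change of -0.82 (SE 0.47, limma adjusted p = 0.21) at day 4, passed as lower under both, at -1.41 and -1.32 (limma adjusted p = 0.0147 and 0.0288). So miR-99b-5p was higher and miR-125b-5p lower at day 4 in direction under each of the 3 scalings, and the size of both depends on the scaling. miR-99a-5p (1.12, SE 0.58) and miR-100-5p (1.02, SE 0.58) were not past the threshold at day 4 (limma adjusted p = 0.161 and 0.21).

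At day 2 members of different loci passed in opposite directions. miR-125b-5p fell by 1.98 (SE 0.47, limma adjusted p = 4.16e-04) and was lower than at day 0 in both treatments, to 0.34 of the day 0 level with Dox (counting interval 0.201 to 0.558) and 0.184 without Dox (0.0902 to 0.343). miR-99b-3p rose by 1.59 (SE 0.36, limma adjusted p = 2.78e-04), and miR-99b-5p rose by 0.79 (SE 0.27, limma adjusted p = 0.0256). The call of miR-99b-5p was lost with median-of-ratios scaling (0.31, limma adjusted p = 0.524). It was also lost with the miR-290 cluster left out of the scaling total (0.63, limma adjusted p = 0.0902). Of 8 members tested 3 thus passed, against 17.3% of all miRNAs, 15.3% as higher. Over all miRNAs 128 were called higher and 17 lower, which became 51 higher and 51 lower once median-of-ratios scaling was used (at day 1, 59 and 9 became 35 and 34). Lower calls were rarer, at 2.03% of all miRNAs, and miR-125b-5p was the only member among them. miR-100-5p (-1.49, SE 0.58, limma adjusted p = 0.0567) and miR-99a-5p (-1.42, SE 0.58, limma adjusted p = 0.0764) had the same sign without passing, and passed with median-of-ratios scaling (limma adjusted p = 0.00918 and 0.0141). In contrast to miR-99b-5p, miR-125a-5p had a log2 change of -0.15 (SE 0.31, limma adjusted p = 0.802). It was at 0.604 of its day 0 level with Dox (counting interval 0.489 to 0.747) and at 1.34 without Dox (1.07 to 1.68), opposite directions in single libraries that were not tested.

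At day 1 only miR-99b-3p passed, with a rise of 1.08 (SE 0.36, limma adjusted p = 0.0417), against 8.1% of all miRNAs (7.03% higher and 1.07% lower). That call was lost without the filter, under both other scalings, without limma's robust option, with limma-voom and without the day 2 libraries (limma adjusted p = 0.0624 to 0.263). miR-125a-5p (0.84, SE 0.31, limma adjusted p = 0.0777) and miR-125b-5p (-1.14, SE 0.47, limma adjusted p = 0.123) had opposite signs, and miR-125b-5p passed as lower with median-of-ratios scaling (-1.52, limma adjusted p = 0.0174). miR-125a-3p, at 11, 31, 11 and 22 RPM with Dox and 36, 31, 43 and 28 RPM without Dox, passed at no day, and neither did miR-125b-1-3p. By median, the 4 products of the chromosome 17 locus had log2 changes of 0.72, 0.46 and 1.27 at days 1, 2 and 4, the 4 tested members of the other loci -0.80, -1.46 and 1.07, and all miRNAs tested 0.37, 0.48 and 0.56. On each day the median of the other loci was set by miR-99a-5p and miR-100-5p, the shared signal counted under both names. Beside it, miR-125b-5p had changes of -1.14, -1.98 and -0.82, and miR-125b-1-3p of 0.44, 0.93 and 1.59.

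**Figure D2:**
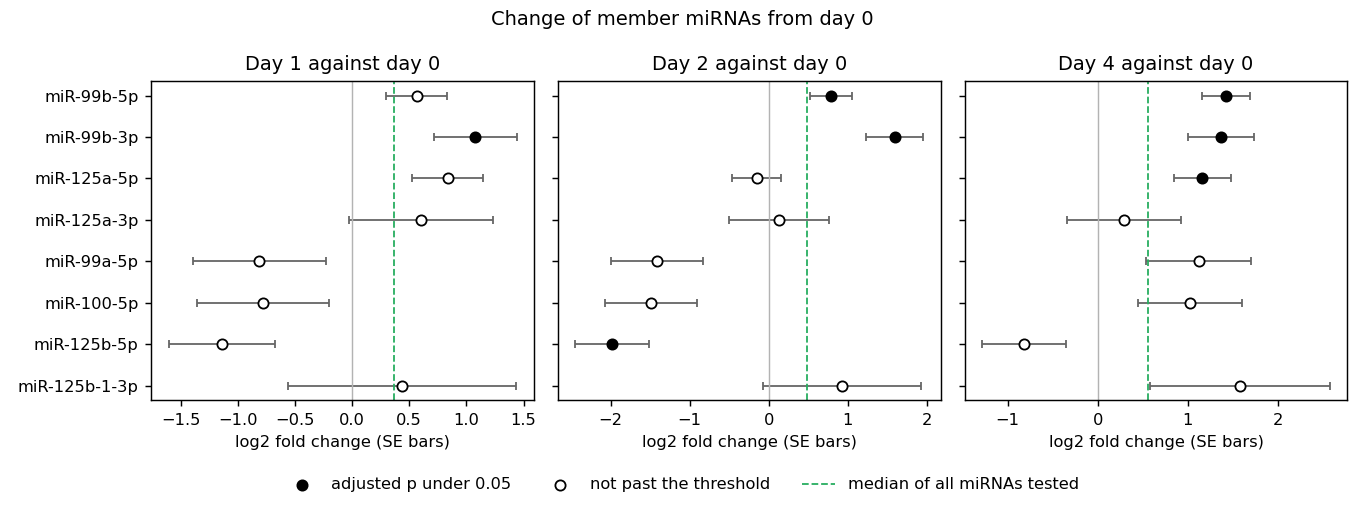
Log2 fold change of 8 members at days 1, 2 and 4 against day 0, with SE bars; filled points have a limma adjusted p under 0.05, and the dashed line is the median of all 839 miRNAs tested. At day 2 miR-99b-3p stands at 1.59 and miR-125b-5p at -1.98, on opposite sides of that median of 0.48.

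A ratio of paralogs within a library does not depend on scaling, and was used to set the chromosome 17 locus against the others. miR-125a-5p exceeded miR-125b-5p by 3.75, 10.4, 6.67 and 10.3 fold with Dox at days 0, 1, 2 and 4, and by 2.21, 12.7, 16.4 and 12.8 fold without Dox. The ratio was higher at every later day than at day 0 in both treatments. Its slope was 0.39 per day on the log2 scale, and an exact two-sided permutation test over the 8 libraries, with days exchanged within treatment, gave p = 0.122 (adjusted over 3 pairs, 0.365). The slope was 0.013 without the day 0 libraries and 0.92 without the day 4 libraries.

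miR-99b-5p exceeded miR-100-5p by 36.1, 69.6, 217.7 and 45.4 fold with Dox, and by 53.0, 186.1, 228.2 and 72.0 fold without Dox. The counting intervals of days 1 and 2 were 45.3 to 115.4 and 106.2 to 546.3 with Dox, on 20 and 7 reads of miR-100-5p. Without Dox they were 83.0 to 495.2 and 98.6 to 712.2, on 6 and 5 reads. The ratio was highest at day 2 in both treatments, with intervals that overlapped those of day 1, and was back near its day 0 value at day 4. A straight line could not follow that course: the slope was 0.05 per day, with an exact permutation p = 0.826, and against miR-99a-5p, the inseparable signal, it was 0.02, with an exact permutation p = 0.924 (adjusted over 3 pairs, 0.924 for both). An exact test for any pattern over days, chosen after the values were seen, put 93.5% and 91.1% of the variance within treatments between days for these ratios. Its p of 0.0417 was the smallest this exact permutation test can give (adjusted p = 0.0625). That adjustment over 3 pairs counts the inseparable signal under both names. For miR-125a-5p over miR-125b-5p the share was 84.4%, with an exact permutation p = 0.25. None of the 3 ratios therefore passed after adjustment.

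**Figure D3:**
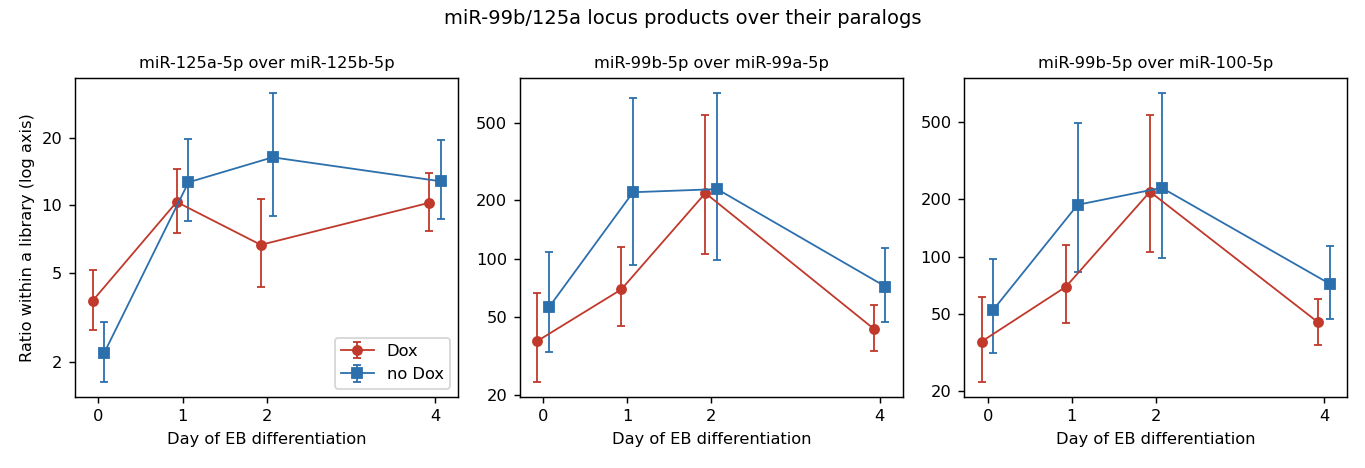
Ratio of chromosome 17 locus products to their paralogs in each library (log axis) by day, with Dox (circles) and without Dox (squares); bars are 95% counting intervals. The ratio of miR-99b-5p to miR-100-5p is highest at day 2, at 217.7 with Dox and 228.2 without Dox, with intervals that overlap those of day 1.

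The study's own question was the effect of Dox, compared across the 4 days. None of the 8 tested members passed, against 1.91% of all miRNAs (1.31% higher and 0.596% lower), and none passed with limma-voom on implied reads. At an unadjusted p under 0.05 there were 2 of the 8 members, against 88 of all 839 miRNAs. miR-99b-5p had a log2 change of 0.09 (SE 0.19, limma adjusted p = 0.94) and miR-125a-5p one of 0.12 (SE 0.22, limma adjusted p = 0.94). The median was -0.10 for the chromosome 17 locus and 0.68 for the other loci, where 2 of the 4 members are the shared miR-99a-5p and miR-100-5p signal, against 0.03 for all miRNAs tested. A Dox effect that differs by day was tested too, and again none of the 8 passed (lowest limma adjusted p = 0.703), against 0.954% of all miRNAs (0.238% higher and 0.715% lower at later days), with 0 of the 8 at an unadjusted p under 0.05, against 95 of all 839 miRNAs.

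Members outside the chromosome 17 locus were nearest to a difference upward. miR-99a-5p had a log2 change of 0.82 (SE 0.41, limma adjusted p = 0.474) and miR-100-5p one of 0.74 (SE 0.41, limma adjusted p = 0.551), and both were higher with Dox on 4 of 4 days. Without the day 1 libraries these changes were 0.51 and 0.48. Day by day, the Dox over no-Dox ratio of miR-100-5p was 1.37, 2.90, 1.26 and 1.66 at days 0, 1, 2 and 4, with counting intervals that left out 1 at day 1 (1.12 to 8.81) and, narrowly, at day 4 (1.01 to 2.82). These rest on few reads, 20 against 6 at day 1 and 57 against 23 at day 4. miR-125b-5p had a log2 change of 0.40 (SE 0.33, limma adjusted p = 0.759), and its interval included 1 on each day. miR-125a-3p was the nearest downward, at -0.96 (SE 0.45, limma adjusted p = 0.4), with 4 reads with Dox against 15 without Dox at day 0 and 5 against 18 at day 2. Its reads were 16 against 14 at day 1 and 12 against 10 at day 4. The Dox over no-Dox ratios there were 0.993 and 0.804, with counting intervals that included 1.

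For the abundant members the intervals were narrow and the ratios crossed 1 between days. miR-125a-5p stood at a Dox over no-Dox ratio of 1.65 (1.32 to 2.06) at day 0 and 0.743 (0.599 to 0.921) at day 2, with a ratio of 1.00 at day 4. miR-99b-5p stayed between 0.922 at day 0 and 1.19 at day 2, with intervals that left out 1 at days 1 (1.04 to 1.22) and 2 (1.10 to 1.29). miR-99b-3p reached 0.62 (0.487 to 0.788) at day 4. These intervals leave out the spread between cultures. Around the model of treatment and day, the residual SD over the 8 libraries was 0.11 log2 units for miR-99b-5p and 0.34 for miR-125a-5p, on 3 residual degrees of freedom. Set against its paralogs, miR-99b-5p relative to miR-99a-5p was lower with Dox on 4 of 4 days, by a mean of -0.72 on the log2 scale, and relative to miR-100-5p by -0.65 on 4 of 4 days. Without the day 1 libraries these means were -0.44 and -0.415. The exact two-sided sign-flip test over 4 day pairs gave an adjusted p = 0.188 for both, and the unadjusted p of each was the smallest that this test can give. miR-125a-5p over miR-125b-5p was lower with Dox on 3 of 4 days, by a mean of -0.28 (exact p = 0.625).

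**Figure D4:**
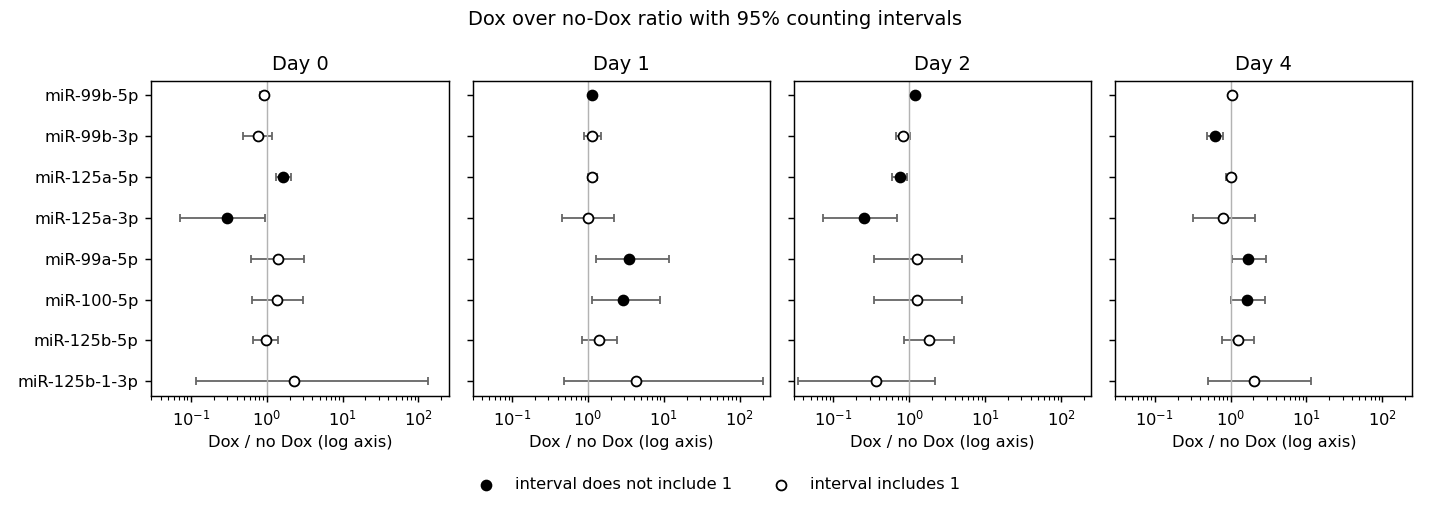
Dox over no-Dox ratio (log axis) of 8 members at each day with 95% counting intervals; filled points have an interval that does not include 1. miR-99b-5p lies between 0.922 and 1.19, with intervals that leave out 1 at days 1 and 2. miR-99a-5p and miR-100-5p lie above 1 on each day, with wide intervals that leave out 1 at days 1 and 4.

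The ratio of the neighbours miR-99b-5p and miR-125a-5p, products of 1 locus, was 2.95, 3.24, 9.60 and 4.84 with Dox at days 0, 1, 2 and 4, against 5.27, 3.30, 5.98 and 4.61 without Dox. It was highest at day 2 in both treatments. Without Dox that value was close to the one of day 0, on 193 and 141 reads of miR-125a-5p, and no interval was computed.

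The let-7 encoded between miR-99b and miR-125a had its highest levels earlier than either neighbour. let-7e-5p was at 82, 265, 191 and 107 RPM with Dox, against 46, 322, 218 and 188 RPM without Dox, highest at day 1 in both treatments. It rose by 2.23 at day 1 (SE 0.40, limma adjusted p = 7.07e-06) and by 1.72 at day 2 (SE 0.40, limma adjusted p = 4.16e-04). Its rise of 1.19 at day 4 (SE 0.40, limma adjusted p = 0.0155) was lost under both other scalings (0.60 and 0.70). Within a library, miR-99b-5p exceeded let-7e-5p by 20.3, 10.2, 17.1 and 44.6 fold with Dox, and by 39.2, 7.51, 12.6 and 24.1 fold without Dox. let-7a-5p was at 547, 1251, 1198 and 584 RPM with Dox, against 548, 1358, 1338 and 808 RPM without Dox, and let-7c-5p at 435, 933, 989 and 390 RPM with Dox, against 448, 994, 932 and 621 RPM without Dox. Both were higher at days 1 and 2 than at day 0. let-7c-5p and let-7a-5p, which have copies in the chromosome 16 and 9 clusters and also at loci outside them, rose at day 1 by 1.12 and 1.25 (SE 0.31 and 0.30, limma adjusted p = 0.00597 and 9.79e-04), when miR-125b-5p and miR-100-5p had negative changes. With median-of-ratios scaling let-7a-5p still passed at day 1 (0.87, limma adjusted p = 0.046) and let-7c-5p did not (0.75, limma adjusted p = 0.144). The 3p arms let-7c-1-3p and let-7a-2-3p, which would tie reads to those clusters, were not among the miRNAs listed, and let-7e-3p reached at most 12 RPM. With Dox none of these 3 let-7 5p miRNAs passed (log2 changes of -0.11 for let-7e-5p, -0.18 for let-7c-5p and -0.19 for let-7a-5p).

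miR-351-5p, which carries the miR-125 seed but is encoded on chromosome X, was at 11, 37, 32 and 91 RPM with Dox, against 22, 44, 38 and 110 RPM without Dox. It rose by 2.61 at day 4 (SE 0.54, limma adjusted p = 2.15e-05) and passed under both other scalings, at 2.03 and 2.14. At day 4 without Dox its level exceeded that of miR-125b-5p, at 77 RPM. The seed of miR-125 was thus carried mainly by miR-125a-5p in each library.

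Both arms were measured for the miRNAs of the chromosome 17 locus. For each read of miR-99b-3p there were 15.6, 9.83, 9.65 and 19.0 reads of miR-99b-5p with Dox at days 0, 1, 2 and 4, against 12.8, 9.89, 6.67 and 11.2 without Dox. At days 2 and 4 the counting intervals of the treatments did not overlap (8.2 to 11.4 with Dox and 5.68 to 7.87 without Dox at day 2, 15.97 to 22.7 and 9.45 to 13.3 at day 4). At day 1 they were nearly equal. For miR-125a the 5p arm exceeded the 3p arm by 9.4 fold in the lowest library, day 0 without Dox, and 51.5 fold in the highest, day 0 with Dox, and rested on 4 to 18 reads of the 3p arm. These ratios have 1 library per condition and were not tested.

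Of 492 miRNAs averaging 10 RPM or more, those most like miR-99b-5p over the 8 libraries, by Pearson's r of log2 levels, were miR-431-5p (0.982), miR-370-3p (0.956) and miR-127-3p (0.939), all of the imprinted Dlk1-Dio3 region. miR-431-5p was at 142, 272, 447 and 737 RPM with Dox, against 119, 202, 289 and 905 RPM without Dox. For miR-125a-5p they were miR-465a-3p, miR-465b-3p and miR-465c-3p, copies of equal value (0.834 each). For miR-100-5p they were miR-378d, miR-34b-3p and miR-378a-3p (0.914, 0.906 and 0.903), and for miR-99a-5p the same miRNAs (0.901, 0.922 and 0.901). miR-125b-5p was most like miR-192-5p (0.846), miR-486a-5p (0.755) and miR-350-3p (0.748). Between 5p members of 1 locus, r was 0.56 for miR-99b-5p with miR-125a-5p. It was 0.67 for miR-100-5p with miR-125b-5p and 0.63 for miR-99a-5p with miR-125b-5p. These pairs are not separate, because the miR-125b-5p row holds both copies and miR-99a-5p and miR-100-5p are 1 shared signal. Across loci it was 0.60 for miR-125a-5p with miR-100-5p, 0.58 for miR-125a-5p with miR-99a-5p and 0.40 for miR-99b-5p with miR-99a-5p. Lower still were miR-99b-5p with miR-100-5p (0.37), miR-125a-5p with miR-125b-5p (0.08) and miR-99b-5p with miR-125b-5p (-0.36). The values within and across loci thus overlapped, at 0.56 to 0.67 within and -0.36 to 0.60 across. The points are 8 libraries that share the order of days, and r describes them only.

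miR-125b, miR-100 and miR-99a are abundant in fibroblasts, so markers of such cells are given beside them. Of 12 fibroblast miRNAs 10 were listed, none at 0 in all libraries and none a member, and they summed to 3173, 2834, 3172 and 3665 RPM with Dox at days 0, 1, 2 and 4, against 3871, 4029, 3679 and 3183 RPM without Dox. The largest part was miR-143-3p, at 1004 to 2723 RPM. Markers named after their values were seen were miR-199a-3p and miR-199b-3p, listed at equal values of 191, 176, 149 and 196 RPM with Dox, against 228, 220, 154 and 223 RPM without Dox. They were lowest at day 2 in both treatments, and miR-199a-5p and miR-199b-5p were lowest at day 2 with Dox and at day 1 without Dox. Other markers of the list had other courses. miR-145a-5p was at 30, 149, 138 and 28 RPM with Dox, against 85, 211, 145 and 17 RPM without Dox. miR-143-3p was lowest at day 1 with Dox and day 4 without Dox, and miR-31-5p at day 0 and day 4. miR-152-3p was lowest at day 1 in both treatments. The list thus had no single course to set beside miR-125b-5p. The 7 neural markers, all listed, summed to 3439 to 5879 RPM with Dox and 3954 to 8027 RPM without Dox. Most of that was miR-9-5p, at 2889 to 7304 RPM, and these markers too had no single course. From day 0 to day 4 miR-9-5p went from 2889 to 5211 RPM with Dox and from 3452 to 7302 RPM without Dox. Over the same days miR-124-3p went from 156 to 20 RPM with Dox and from 179 to 52 RPM without Dox. The 6 listed of 7 blood and endothelial markers summed to 848 to 1630 RPM with Dox and 907 to 1265 RPM without Dox. The 5 primed epiblast markers stood apart at day 4, at 2151 RPM with Dox and 31166 RPM without Dox. The part of these cell types in the members' levels was not tested.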

How the data were processed

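Small RNA libraries from total RNA (TRIzol; NEBNext kit for small RNA; per the labels' protocols) were compared. The authors deposited 1 table of scores, whole numbers with nearly equal library sums, read here as rounded RPM. The submitters' processing notes name Bowtie and mm10. Not given in the sources used here are the counting tool, the annotation and the rule for reads that fit more than 1 miRNA. Of 1100 rows, 1 holding no miRNA was left out. Groups came from the labels.

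Tests had been planned for counts or normalized values, and the latter applied: limma 3.58.1 (R 4.3.3) on log2(value + 1), which understates changes of low miRNAs, for miRNAs at 1 RPM or more in at least 2 libraries (839), with trend, robust prior and Benjamini-Hochberg adjustment at 0.05. Day is the block that pairs a Dox with a no-Dox library. With 3 residual degrees of freedom the spread came from the trend over all miRNAs for all except 39, so SEs can be narrower than a miRNA's own, and p-values concern only these libraries. Ratios of paralogs were tested by exact permutation over libraries. Implied reads are the smallest total for which every value, within 0.5 RPM, is a whole number of reads. A single total did so in 2 of 8 libraries, 2 to 10 totals in 3, and 185, 192 and 207 in the other 3 (all without Dox), and the smallest gives the widest intervals. Ratio intervals are exact conditional binomial, shares have Wilson intervals. The methods were tested on simulated data. Named were all members, their let-7 partners, listed miRNAs sharing a seed, and the 3 miRNAs most like each 5p member. Members and lists were chosen with earlier results of these data known.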

Additional observations from a re-analysis of the deposited data

How the results depend on the processing

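No member tested was called for Dox, or for a Dox effect that changed with day, in any setting run; with a mean floor of 10 RPM miR-125b-1-3p was not tested. Some settings could show little: over all miRNAs 16 passed for Dox, against 0 with limma without the robust option (71 at an unadjusted p under 0.05), 0 without the filter (67) and 0 without a day term (25), and 1 with day as a number. For the effect by day 8 passed, against 0 without the robust option (81), 0 without the filter (88) and 0 for days 2 and 4 against 0 and 1 (38). Members called at day 1 (1 in the report) were 2 with a mean floor of 10 RPM and 0 without the filter, with reads scaled outside the miR-290 cluster, without the robust option or with limma-voom, and 0 to 3 when a day pair was left out (0 without day 2, 3 without day 4). Over all miRNAs, day 1 calls were 68 of 839 in the report, 80 of 499 with that floor and 1 of 1099 without the filter. They were 65 with reads scaled outside the miR-290 cluster, 13 without the robust option, 53 with limma-voom, 33 without day 2 and 109 without day 4. At day 2 (3 in the report) there were 5 with the mean floor and 0 without the filter, which adds miRNAs at 0 to the variance trend. Over all miRNAs, day 2 calls were 149 of 499 with the floor and 1 of 1099 without the filter, against 145 of 839 in the report. At day 4 (3 in the report) there was 1 without the filter. There 30 of 1099 miRNAs passed, against 216 of 839 in the report. Without the day 1 pair miR-99b-5p did not pass at day 2 (adjusted p = 0.0512) and let-7e-5p did not at day 4 (adjusted p = 0.0529, or 0.0612 without day 2).

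Signs turned for values that had not passed. With median-of-ratios scaling and with scaling outside the miR-290 cluster, miR-125a-3p stood at -0.33 and -0.03 at day 2 and -0.28 and -0.19 at day 4, let-7c-5p at -0.44 and -0.35 and let-7a-5p at -0.27 and -0.18 at day 4. With each day pair left out, the Dox change of miR-125a-5p ran from -0.079 to 0.30 and that of let-7e-5p from -0.43 to 0.12. The slope of miR-99b-5p over miR-99a-5p ran from -0.44 to 1.10 and over miR-100-5p from -0.40 to 1.14, negative without day 0 (and, over miR-99a-5p, without day 2 at -0.025), and the Dox difference of miR-125a-5p over miR-125b-5p from -0.62 to 0.055 (positive without day 2). In no-Dox libraries alone the slope over miR-99a-5p was -0.009. Why was not tested. Members under about 50 RPM rest on few reads, and no condition had a replicate.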
